A study of Mus musculus with 16 samples.

Results

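The histone lysine demethylases are described here by 10 of their genes, Kdm1a, Kdm2a, Kdm2b, Kdm3a, Kdm4a, Kdm4b, Kdm5a, Kdm5b, Kdm6b and Kdm7a, out of 40481 genes listed. They were taken by gene symbol, and were selected on measured values of these mice, namely the lower level of Kdm6b under adropin beside the levels of its relatives. The difference between treatments is therefore given for these genes as a description. Where members are counted at a p threshold of the fit over all genes, the count is not evidence about them. The RNA came from brain tissue of 16 male C57BL mice (C57BL/6J in the study's own text) bought at 18 months of age, of which 8 were given adropin(34-76) and 8 were controls. The peptide, the putative secreted part of adropin, was injected intraperitoneally once daily at 90 nmol/kg/d in saline with BSA, and controls received this diluent alone. Each treatment group held 15 mice, and injections ran for 2 weeks before behavioural tests and continued during them, with a fast before tissue was taken. The brain region was not given in the sources used here. Poly-A selected RNA was sequenced, and total counts per mouse ranged from 35026503 to 70314050. All 10 genes passed the filter on low counts, with 575 to 5942 counts per mouse. Levels are given as CPM, the counts scaled to a common library size with TMM factors, and a mouse is named by the pair of numbers in its label, whose meaning was not given in the sources used here.

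Defining markers of neurons, astrocytes, oligodendrocytes, microglia and endothelium were all present in the 16 brains, and no marker on these 5 lists was at 0 in all mice. Saline-treated mouse 8_3 stood apart by its markers of choroid plexus, whose summed level was 2479 CPM there against a median of 21.5 CPM in the saline group, and of cerebellum, with 555.9 CPM against a median of 134 CPM. Without this mouse the log2 fold changes (adropin against saline) of Kdm4a and Kdm5b turned from 0.02 and 0.02 to -0.01 and -0.02, that of Kdm1a went from 0.03 to 0.01, and those of Kdm2b and Kdm3a were both -0.04. In bulk tissue, fewer cells of a type and less RNA per cell cannot be told apart.

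Histone lysine demethylases remove methyl groups from lysine side chains of histones and so reverse marks that chromatin regulators read. Kdm1a belongs to a small flavin-dependent branch, the amine oxidases, which act on mono- and dimethylated H3K4. The others carry a JmjC domain and depend on iron and 2-oxoglutarate, and their branches differ in the lysine they act on. Kdm2a and Kdm2b act on H3K36 and bind unmethylated CpG-rich DNA, Kdm3a acts on H3K9, Kdm4a and Kdm4b act on trimethylated H3K9 and H3K36, and Kdm5a and Kdm5b act on di- and trimethylated H3K4. Kdm6b, also called Jmjd3, removes the repressive H3K27 marks laid down by Polycomb repressive complex 2 and is known as an inducible gene in stimulated neurons and macrophages, whereas its X-linked relative Kdm6a is broadly expressed. Kdm7a, a PHD finger protein, acts on dimethylated H3K9 and H3K27.

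All 10 genes were transcribed in the aged brain, and their levels per length covered a range from 1.91 to 15.3 CPM per kilobase of annotated exon. The H3K9 and H3K36 demethylase Kdm4b was highest at 15.3 ± 1.22 CPM per kilobase (SD, n = 16 mice). It was followed by Kdm4a at 9.47 ± 0.922 and Kdm1a at 8.86 ± 0.592 CPM per kilobase. Kdm6b came next at 6.20 ± 0.752 CPM per kilobase, ahead of Kdm2a at 5.27 ± 0.704 and Kdm7a at 4.69 ± 0.455. The lower end was made up of Kdm3a at 3.57, Kdm5b at 3.15, Kdm5a at 2.57 and Kdm2b at 1.91 CPM per kilobase. In this order each of the 9 pairs of neighbours passed the test of their log2 difference (exact permutation of signs within mice, two-sided, adjusted over 9 pairs, with p from 9.16e-05 to 0.0284). The smallest steps were Kdm4a over Kdm1a, 1.07-fold and higher in 15 of 16 mice, and Kdm2a over Kdm7a, 1.12-fold and higher in 13 of 16 mice. Kdm6b over Kdm2a was 1.18-fold, also in 13 of 16 mice, and for this pair and for Kdm2a over Kdm7a the mean log2 difference (0.24 and 0.16) was smaller than its SD between mice (0.27 and 0.26). The rank of Kdm6b pools both groups, with 6.75 CPM per kilobase against 5.12 for Kdm2a under saline and 5.65 against 5.42 under adropin. The order and the direction of each pair were taken from the means of these same mice. The p of the neighbour tests covers spread between mice and not error in the lengths, and the order depends on the length used. With the longest annotated transcript in place of all exons, Kdm1a came before Kdm4a and Kdm2a before Kdm6b, Kdm7a moved behind Kdm5b, Kdm2b moved ahead of Kdm5a, and 7 of 9 neighbours differed. Among 25 lysine demethylases, which add 15 relatives to the 10, Kdm4b ranked 1, Kdm6b ranked 8 and Kdm6a ranked 18, at 2.10 ± 0.345 CPM per kilobase.

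**Figure D1:**
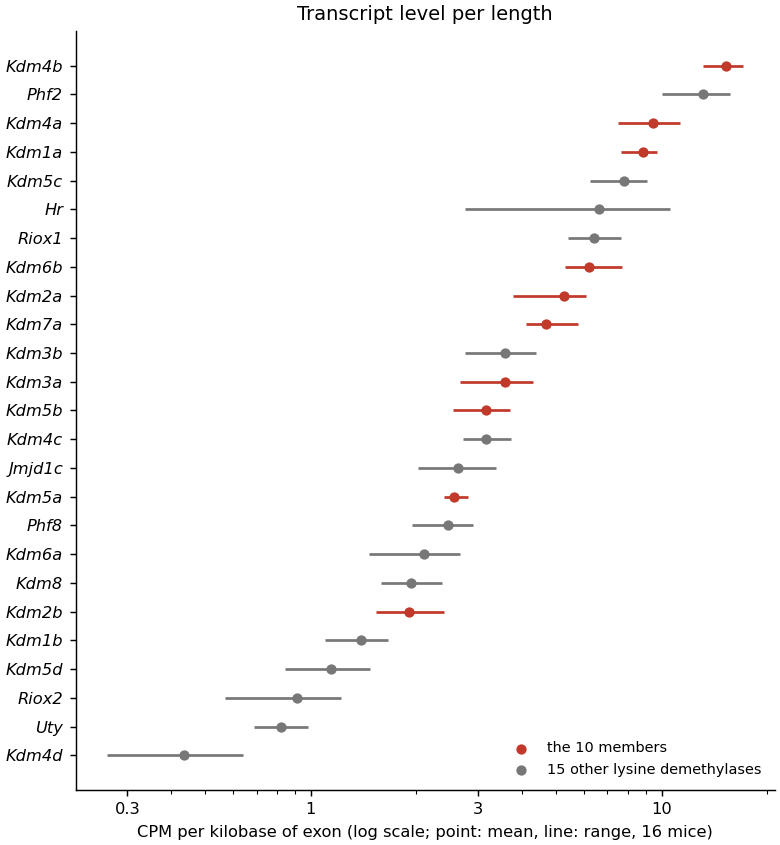
Level of each lysine demethylase in CPM per kilobase of exon on a log axis, with the mean (point) and the range (line) over 16 mice, for the 10 genes (red) and 15 relatives (grey). Kdm4b had the highest mean at 15.3 and Kdm6b ranked 8 of 25.

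Kdm1a with Kdm4a and Kdm2a with Kdm3a were the pairs of members whose levels varied most alike between mice (r = 0.93 within groups for both pairs). The DNA just upstream of Kdm1a and Kdm4a is shown because both genes of that pair have an entry in the sequence table. RefSeq windows on GRCm38.p6 were found for 6 of the 10 genes (Kdm1a, Kdm2b, Kdm3a, Kdm4a, Kdm5b and Kdm7a), 11 windows in all, some overlapping, and the 250 bases before each start were searched on both strands. Those of Kdm1a at chr4:136602724-136602973 and of Kdm4a at chr4:118180044-118180293, both on the minus strand and outside the annotated gene, read as follows, 5′ to 3′, with the CCAAT box (CCAAT, or ATTGG on the other strand) and the AP-1 site (TGANTCA) in capitals.
Kdm1a: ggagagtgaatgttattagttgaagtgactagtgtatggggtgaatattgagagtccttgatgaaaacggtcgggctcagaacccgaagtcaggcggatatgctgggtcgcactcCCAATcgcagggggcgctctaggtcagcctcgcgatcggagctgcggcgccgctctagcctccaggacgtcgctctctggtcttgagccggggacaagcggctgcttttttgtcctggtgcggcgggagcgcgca
Kdm4a: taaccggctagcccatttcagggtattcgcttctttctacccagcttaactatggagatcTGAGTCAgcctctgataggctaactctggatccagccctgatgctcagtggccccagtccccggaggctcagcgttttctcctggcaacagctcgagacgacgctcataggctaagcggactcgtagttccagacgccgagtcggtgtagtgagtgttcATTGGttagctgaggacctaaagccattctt
The CCAAT box was present in both windows, and in 5 of the 11 windows of 4 members, against 33.8% of 32851 windows of all genes. An AP-1 site stood in windows of Kdm4a and Kdm3a, against 6.75% of all windows, and the cAMP response element TGACGTCA in none of the 11, against 1.55%. The GC box GGGCGG was in 7 windows of 4 members, against 32.7% of all windows. The member windows held a median of 21 CG dinucleotides, from 0 to 56, and those of all genes a median of 6. These counts describe letters in these windows only.

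Of the 10 genes, Kdm6b was the one that stood lower in the adropin group, while the other 9 lay close to their saline levels. Kdm6b (ENSMUSG00000018476, chromosome 11 of GRCm38 from 69398508 to 69413675, minus strand) ranged from 36.9 to 43.3 CPM with a median of 37.7 CPM under adropin, and from 41.6 to 53.7 CPM with a median of 46.8 CPM under saline. The groups overlapped between 41.6 and 43.3 CPM. In 5 of 8 adropin-treated mice Kdm6b was below every saline-treated mouse, in 6 of 8 saline-treated mice it was above every adropin-treated mouse, and all 8 adropin-treated mice lay below the saline median. The means were 39.3 ± 2.87 CPM and 46.9 ± 4.10 CPM (SD, n = 8 each), which is -0.26 on the log2 scale (standard error 0.06), or -16.3%. Among the 14949 genes tested, 50.8% had a negative fold change and 3.77% had one at least as low as that of Kdm6b. At an unadjusted p under 0.05 (edgeR), 2.13% of all genes were lower and 1.86% higher, and Kdm6b was the 1 member so called, a count that the choice of members fixes. At an adjusted p under 0.05 edgeR called 0.0% of all genes, in either direction, limma-voom called 0 genes and DESeq2 called 5, and no member was among them.

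**Figure D2:**
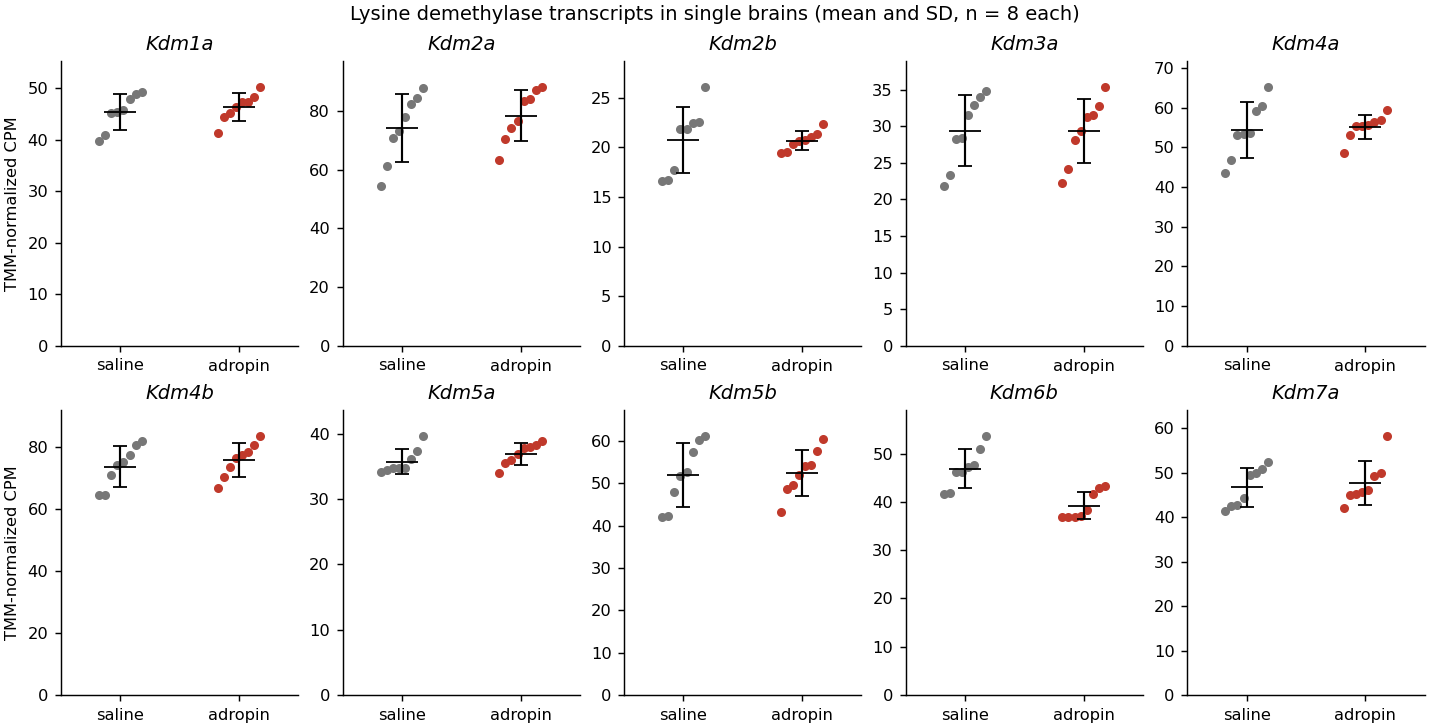
TMM-normalized CPM of the 10 genes in each brain, saline (grey) and adropin (red), with one point per mouse and black lines for the mean and SD (n = 8 each), every axis starting at 0. Kdm6b spans 36.9 to 43.3 CPM under adropin and 41.6 to 53.7 CPM under saline, while each of the other 9 genes has at least 7 of its 8 adropin values inside its saline range.

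The Kdm6b difference kept its sign in each of 27 alternative settings, and Kdm6b had the lowest fold change of the 10 genes in all 27. These settings refit the mice on which the genes were selected, so they show how far the value moves and are not further evidence. Leaving out single mice gave values from -0.28 to -0.23, and -0.26 without mouse 8_3. Blocking on the first number of the labels shrank the difference to -0.12 (standard error 0.08), with Kdm2b next lowest at -0.08. In that fit only the mice sharing a first number with a mouse of the other group inform the difference. Under number 2, Kdm6b was 36.9 and 37.1 CPM in the adropin-treated mice and 41.6 CPM in the saline-treated mouse. Under number 5 it was 43.3 CPM under adropin and 47.4 and 41.9 CPM under saline, and under number 7 it was 41.6 and 46.3 CPM. The adropin-treated mouse was lower in these pairs, except 5_5 against 5_4. The pairs share mice and use the values on which Kdm6b was selected, so they are not further evidence. An antisense gene, Kdm6bos, overlaps 4.11% of the exon bases of Kdm6b. This gene had 6 to 39 counts per mouse, but whether counting used strand was not given in the sources used here. The same holds for Kdm2b, Kdm7a and Kdm5a, which share 7.60%, 2.85% and 1.77% of their exon bases with genes on the other strand.

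Set against its relatives within each mouse, the contrast on which the genes were selected, Kdm6b was lower under adropin. Its log2 CPM minus the mean log2 CPM of the other 9 genes was -0.21 ± 0.15 in the adropin group, from -0.38 to -0.01, and 0.08 ± 0.14 in the saline group, from -0.10 to 0.23 (SD, n = 8 each). This difference of -0.29 is slightly larger than that of Kdm6b alone, and 6 of 8 adropin-treated mice lay below every saline-treated mouse. Measured against single relatives, the difference ran from -0.26 against Kdm3a to -0.35 against Kdm2a. Against Kdm6a, which shares its substrate, Kdm6b was higher by 1.14 ± 0.28 on the log2 scale of CPM under adropin and by 1.46 ± 0.20 under saline, a difference of -0.32. When each mouse was left out in turn, the difference from the 9 relatives stayed between -0.32 and -0.27. The same subtraction gave differences between -0.003 for Kdm3a and 0.09 for Kdm2a for the other 9 genes.

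**Figure D3:**
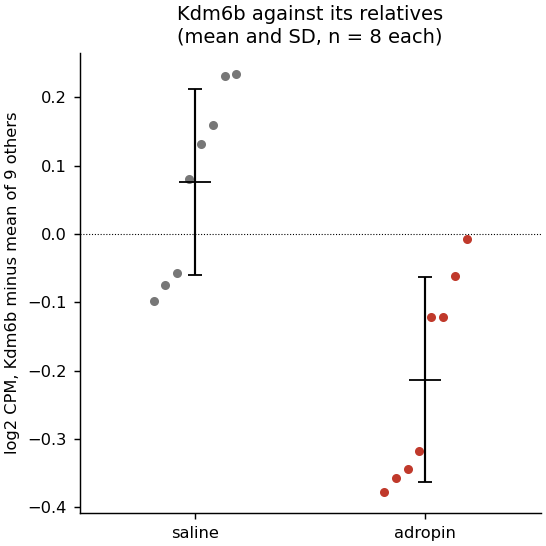
Log2 CPM of Kdm6b minus the mean log2 CPM of the other 9 genes in each mouse, saline (grey) and adropin (red), with the mean and SD (n = 8 each). The saline group lies from -0.10 to 0.23 and the adropin group from -0.38 to -0.01.

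The other H3K27 demethylases lay near 0. Kdm7a (chr6:39136623-39206789) ranged from 42.0 to 58.3 CPM under adropin (median 45.9) and from 41.3 to 52.5 CPM under saline (median 47.0), with 58.3 CPM in a single mouse and no other adropin value above 49.8 CPM. The log2 fold change was 0.03 (standard error 0.07), and -0.01 without adropin-treated mouse 1_3, while its adropin median was below its saline median. Kdm6a had 18.1 ± 3.12 CPM under adropin and 17.2 ± 2.79 CPM under saline, and its Y-linked homologue Uty had 8.19 ± 1.06 and 7.95 ± 0.992 CPM (SD, n = 8 each). On the log2 scale these differences were 0.07 and 0.04 (standard errors 0.11 and 0.09).

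The H3K4 demethylases did not separate the groups. Kdm1a (chr4:136550540-136602723), which acts within the CoREST repressor complex, ranged from 41.4 to 50.3 CPM under adropin (median 46.9) and from 39.8 to 49.3 CPM under saline (median 45.6). The log2 fold change was 0.03 (standard error 0.06). Kdm5a (chr6:120364124-120444574) was the steadiest of the 10, with a coefficient of variation of 5.04% over the 16 mice. It ranged from 34.0 to 38.9 CPM under adropin (median 37.4) and from 34.2 to 39.6 CPM under saline (median 34.8), which gives 0.05 as log2 fold change (standard error 0.05). Kdm5b (chr1:134560171-134635285), its close relative, varied more, from 43.3 to 60.4 CPM under adropin (median 53.1) and from 42.0 to 61.2 CPM under saline (median 52.2). The log2 fold change was 0.02 (standard error 0.09).

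Among the H3K36 demethylases, Kdm2a (chr19:4314419-4398285) ranged from 63.2 to 88.1 CPM under adropin (median 79.8) and from 54.5 to 87.8 CPM under saline (median 75.4), which gives 0.08 as log2 fold change (standard error 0.09), with 2 saline-treated mice below every adropin-treated mouse and 1 adropin-treated mouse above every saline-treated mouse. This was the highest fold change of the 10 genes in 24 of 27 alternatives, but not without mouse 8_3 (0.05, below Kdm7a at 0.06), without 5_4 (0.03, below Kdm5a at 0.06) or with the Gm42418 share as a covariate (0.01, below Kdm5a at 0.06). Kdm2b (chr5:122870665-122989823), a subunit of a variant Polycomb repressive complex 1, had similar means in both groups and a larger SD under saline. It was 20.7 ± 0.943 CPM under adropin and 20.7 ± 3.36 CPM under saline (SD, n = 8 each). The adropin-treated mice lay between 19.5 and 22.3 CPM, while 3 saline-treated mice were below all of them and 3 above, from 16.6 to 26.1 CPM. The lowest of these were mice 5_4 and 8_3 at 16.6 and 16.7 CPM, which also held the lowest saline values of Kdm4a (43.5 and 46.8 CPM). The SD was larger under saline for 9 of the 10 genes and for 66.3% of all genes tested. Differences in spread were not tested.

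The H3K9 demethylases likewise had similar levels in both groups. Kdm3a (chr6:71588972-71632990) ranged from 22.2 to 35.4 CPM under adropin (median 30.3) and from 21.8 to 34.8 CPM under saline (median 30.0), and its log2 fold change was below 0.001 in size (standard error 0.11). Kdm4a (chr4:118136957-118180043) ranged from 48.7 to 59.3 CPM under adropin (median 55.5) and from 43.5 to 65.2 CPM under saline (median 53.4), which gives 0.02 as log2 fold change (standard error 0.07). Kdm4b (chr17:56326062-56402870) ranged from 66.7 to 83.4 CPM under adropin (median 76.9) and from 64.4 to 81.8 CPM under saline (median 74.6), which gives 0.04 as log2 fold change (standard error 0.06). Over the 9 genes other than Kdm6b, 7 fold changes were positive and 2 negative, with a median of 0.03 beside a median of -0.002 over all genes tested. Of the 10 genes, 3 had a negative fold change, and this count moved between 1 and 5 across settings because several values lie near 0. It was 1 when mouse 3_3, 4_3, 5_3, 6_2, 7_1 or 7_4 was left out, and 5 without 1_3, 5_4 or 8_3.

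The 15 other lysine demethylases gave log2 fold changes from -0.09 for Phf8, an X-linked H3K9 demethylase, to 0.13 for Riox2 and Hr. Of them, 11 were positive and 4 negative (Phf8, Riox1, Kdm8 and Phf2), with a median of 0.04, and none was lower or higher at an unadjusted p under 0.05. The X-linked Kdm5c had 57.4 ± 7.02 CPM under adropin and 53.8 ± 5.76 CPM under saline, and its Y-linked homologue Kdm5d had 17.4 ± 2.04 and 17.3 ± 2.95 CPM (SD, n = 8 each). Their log2 fold changes were 0.09 and 0.01. Kdm3b, Jmjd1c, Kdm4c, Kdm4d and Kdm1b lay between 0.01 and 0.08 on the log2 scale. Hr, the gene named after the hairless mutation, had the widest spread at 47.8 ± 15.9 CPM and 43.6 ± 14.5 CPM. Exons of Riox1, Kdm3b and Riox2 overlap those of a gene on the other strand over 31.9%, 24.6% and 22.4% of their bases, so their counts are uncertain.

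**Figure D4:**
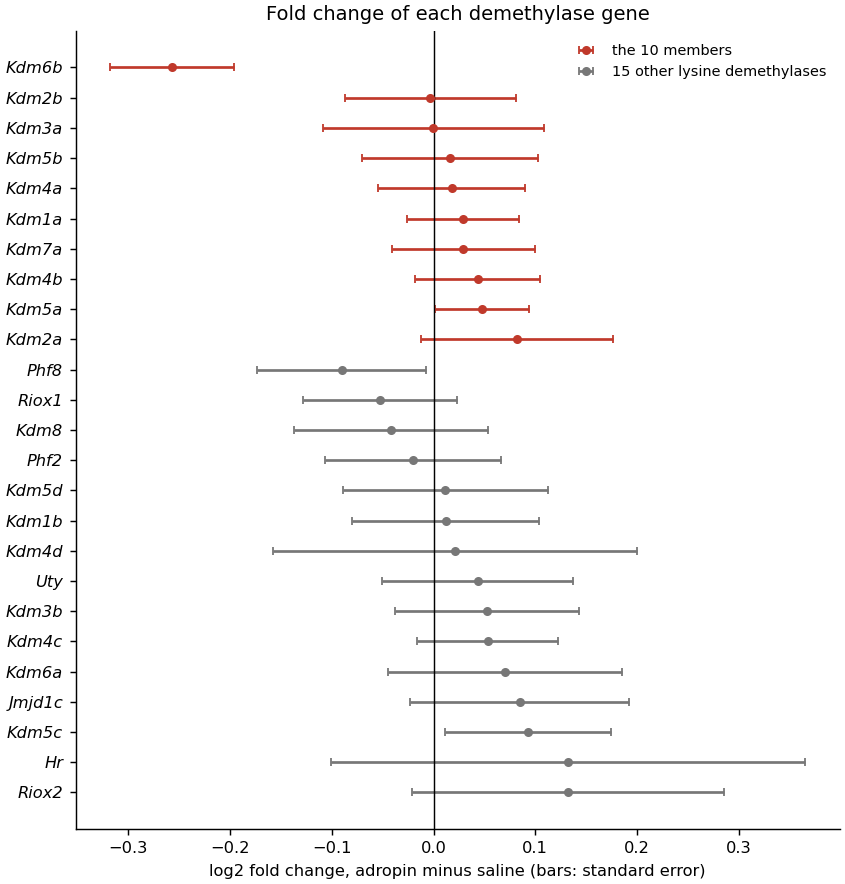
Log2 fold change of each lysine demethylase gene, adropin minus saline, with its standard error, for the 10 genes (red) and 15 relatives (grey). Kdm6b lies at -0.26 and the other 24 genes between -0.09 and 0.13.

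In the lists of writers of the marks that these enzymes remove, 0 genes were past an unadjusted p of 0.05, beside 2.13% lower and 1.86% higher over all genes, of which 49.2% were positive. Polycomb repressive complex 2 and its partners, which methylate H3K27, had 6 of 12 genes on each side of 0 and a median log2 fold change of -0.01, and 0 were past an unadjusted p of 0.05. Of the H3K4 methyltransferase complexes, 11 of 15 genes were positive (median 0.04), of the H3K9 methyltransferases 3 of 6 (median 0.02) and of the H3K36 methyltransferases 6 of 7 (median 0.11), again with 0 past that p. The partners of Kdm1a in CoREST and NuRD had 9 of 15 genes positive (median 0.01), and those of Kdm2b in variant Polycomb repressive complex 1 had 4 of 9 (median -0.03), with 0 past it in both lists. Among 10 other 2-oxoglutarate dioxygenases, which use the cofactors of the JmjC enzymes, 9 were positive (median 0.04). Only Egln3 was past an unadjusted p of 0.05 (edgeR), at 9.59 CPM under adropin and 8.05 CPM under saline. This is a log2 difference of 0.25, its standard error being 0.11 and its edgeR adjusted p being 0.874.

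Activity-regulated early genes, the transcription factors and signalling genes that neurons induce on stimulation, were lower under adropin for most of the list, which was chosen with these results known. Of 20 such genes, 19 had a negative log2 fold change (median -0.54) and 15 were lower at an unadjusted p under 0.05, beside 50.8% negative and 2.13% lower over all genes, with 0 at an adjusted p under 0.05 (edgeR). Egr4 had the smallest p, with a log2 fold change of -0.55 (standard error 0.10, edgeR adjusted p = 0.387), followed by Dusp5 (-0.75), Egr2 (-1.19) and Junb (-0.64). The study drew on some of these genes in these same samples, so the list is not independent evidence of its direction. Fos was 28.5 ± 14.3 CPM under adropin and 57.1 ± 18.2 CPM under saline (SD, n = 8 each), or -50.0%. The early gene index, the mean of standardized log2 CPM over the 20 genes, was -0.50 ± 0.53 under adropin and 0.50 ± 0.57 under saline. The part of these genes in the Kdm6b difference was not tested.

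Between mice of the same group, several demethylases followed the early gene index, but these relations depended on single mice, among them 5_4, whose index was the lowest of the saline group. With group means subtracted, Kdm4b had r = 0.724 and rho = 0.659 over 16 mice (permutation within groups, 100000 resamples, p = 0.00143, adjusted over 10 genes p = 0.0143). Kdm2a had r = 0.704 and rho = 0.656 (permutation p = 0.00290, adjusted p = 0.0145). Without mouse 5_4 these were 0.639 and 0.525, with permutation p of 0.0102 and 0.0489, adjusted p of 0.102 and 0.220, so neither passed the adjustment. Both passed it when any other single mouse was left out. Kdm3a (r = 0.619, rho = 0.465), Kdm4a (0.617, 0.556), Kdm1a (0.589, 0.471) and Kdm2b (0.548, 0.574) had adjusted permutation p from 0.0327 to 0.0377 for r. For rho, Kdm2b passed the adjustment, whereas Kdm4a, Kdm1a and Kdm3a did not, with adjusted permutation p of 0.0557, 0.107 and 0.107. With library size as the only scaling the adjusted permutation p for r of these 4 ran from 0.0570 for Kdm3a to 0.100, while Kdm4b and Kdm2a still passed. With the index taken as the median over the early genes, Kdm1a and Kdm2b did not pass (adjusted permutation p = 0.0630 and 0.105), while the other 4 did. When single mice were left out, r passed the adjustment in 12 of 16 fits for Kdm3a and Kdm4a (lost without 4_3, 5_4, 7_1 or 8_3), in 10 for Kdm1a (also lost without 1_3 or 2_3) and in 9 for Kdm2b (also lost without 5_5). Kdm5b had r = 0.513 and rho = 0.379 (permutation p = 0.0498, adjusted p = 0.0711). Relations of this size were common among all genes, since 17.0% of the 14929 tested genes outside the early gene list had an r at least as high as the 0.548 of Kdm2b, the lowest of the 6 members that passed, and 10.8% had one at least as far below 0.

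The 2 mice farthest from the median of the index over all mice were 3_3 and 4_3. Without them Kdm4b, Kdm2a, Kdm4a, Kdm1a, Kdm2b and Kdm3a had r of 0.656, 0.641, 0.571, 0.566, 0.557 and 0.499, and none passed the adjustment (permutation, adjusted p from 0.0696 to 0.136). The 2 mice farthest from their own group means were 5_4 and 5_5, a choice made after seeing the data. Without those, r was 0.561 for Kdm4b, 0.538 for Kdm2a, 0.574 for Kdm3a, 0.399 for Kdm4a, 0.400 for Kdm1a and 0.281 for Kdm2b, with adjusted permutation p of 0.191 or more.

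For Kdm6b itself the relation to the early gene index did not pass, with r = 0.476 and rho = 0.479 over 16 mice (permutation within groups, p = 0.0760, adjusted p = 0.0950). Within the adropin group r was 0.347 and within the saline group 0.575. It was 0.635 without 3_3 and 4_3 (permutation p = 0.0208, adjusted p = 0.0696), 0.648 without mouse 3_3 (permutation p = 0.0119, adjusted p = 0.0329), 0.551 without mouse 2_3 (permutation p = 0.0456), 0.314 without mouse 5_4 and 0.0883 without 5_4 and 5_5. Its size therefore depends on single mice. Kdm5a (r = -0.163, rho = -0.179, permutation p = 0.561) and Kdm7a (r = 0.087, rho = 0.003, permutation p = 0.760) showed no relation past the threshold. For Kdm7a the groups differed in sign, with r of 0.536 within the adropin group and -0.343 within the saline group.

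The 10 genes did not vary as one set. Kdm1a, Kdm2a, Kdm2b, Kdm3a, Kdm4a, Kdm4b and Kdm5b varied together between mice of a group, with Pearson r from 0.58 to 0.93 (median 0.79) over their 21 pairs, group means subtracted and n = 16. These 7 were grouped after their values were seen. Kdm1a with Kdm4a, whose upstream sequences are printed above, had r = 0.925, as had Kdm2a with Kdm3a. Kdm6b had r from 0.13 to 0.27 with the 7, Kdm5a from -0.08 to 0.31, and Kdm7a from -0.45 to -0.06. Saline-treated mice 5_4 and 8_3 held the lowest 2 saline values of each of the 7 genes, and without both mice the 21 pairs had r from 0.18 to 0.87 (median 0.57, n = 14) and Kdm6b had r from -0.27 to 0.05 with the 7. In the same 14 mice Kdm5a had r from -0.11 to 0.54 with the 7 (median 0.31) and Kdm7a from -0.23 to 0.35 (median 0.05), so the distance of these genes from the 7 depends on the 2 mice. Over all pairs, the 9 with Kdm6b had a median r of 0.18 and the 36 without it a median of 0.69. Mice 5_4 and 8_3 also held the lowest 2 saline values of Kdm3b, Jmjd1c, Kdm5c, Kdm5d, Kdm6a, Uty, Phf2, Phf8 and Riox2. This was not so for Kdm1b, Kdm4c, Kdm4d, Kdm8, Hr and Riox1. Low values in those mice were thus not particular to the 7. How common such r values are over all gene pairs was not determined. All these values come from the same 16 libraries and share their scaling, and they are descriptions without a test.

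**Figure D5:**
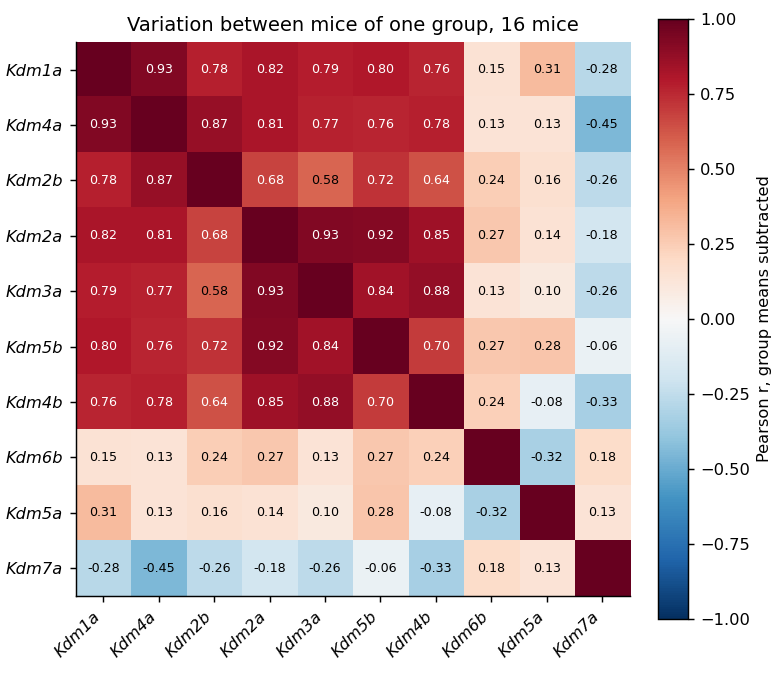
Pearson r between the 10 genes in log2 CPM over 16 mice with group means subtracted, on a colour scale from -1 (blue) to 1 (red). The 7 genes at the upper left have r of at least 0.58 with each other, and Kdm6b, Kdm5a and Kdm7a have r of at most 0.31 with them.

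Measures of tissue and library moved with the same 7 genes. Their r with the neuron marker score lay between 0.44 and 0.72 and with the astrocyte score between 0.53 and 0.74, and with the choroid plexus score between -0.69 and -0.54 (n = 16, group means subtracted). For Kdm6b these were -0.14, 0.25 and -0.18. With the cerebellum and red blood cell scores the 7 genes had r from -0.65 to -0.45 and from -0.60 to -0.33, and Kdm6b -0.02 and 0.06. Kdm5a, outside the 7, had r = 0.47 with the neuron score and -0.57 with the oligodendrocyte score. Without mouse 8_3 the 7 genes had r from 0.39 to 0.72 with the neuron score, from 0.58 to 0.80 with astrocytes, from -0.67 to -0.28 with choroid plexus, from -0.47 to 0.12 with cerebellum and from -0.57 to -0.25 with red blood cells. Kdm6b then had -0.15, 0.25 and -0.27 with the first 3 of these. The share of counts taken by Gm42418, which overlaps ribosomal RNA sequence, had a median of 2.53% under adropin and 1.54% under saline. Its log2 had r = 0.52 with Kdm6b and from 0.31 to 0.62 with the 7 genes. With this share as a covariate, the log2 fold change of Kdm6b was -0.29, and without the covariate it was -0.26. The part of this share in the result was not tested. The choroid plexus list had 5 of 5 tested genes lower under adropin at an unadjusted p under 0.05, with summed levels of 11.9 to 76.7 CPM under adropin and 14.9 to 2479 CPM under saline, the highest in mouse 8_3. Without that mouse 2 of the 5 were lower at that p, and the highest saline sum was 330.7 CPM. The other marker lists had 2 (thalamus), 1 (hippocampus) and 1 (cerebellum) genes lower and 1 (microglia) higher, and none in neurons, astrocytes, oligodendrocytes, endothelium, striatum or red blood cells. Without mouse 8_3 the counts of genes lower were 1 (thalamus), 2 (hippocampus) and 0 (cerebellum). The part of tissue makeup in the values of the demethylases was not tested.

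None of its relatives was among the 10 genes with the highest r to Kdm6b between mice of a group. Over 14948 other genes, the highest Pearson r (n = 16, group means subtracted) belonged to 4933417D19Rik (0.851), Aoc2 (0.802), the histone gene Hist1h2be (0.795), Snhg14 (0.774) and Speg (0.764). They were followed by Zscan20 (0.762), Fbxl19 (0.733), Slfn8 (0.727), Tor1b (0.726) and Kmt2d (0.724), which encodes an H3K4 methyltransferase. Of the 14948 genes, 2 exceeded 0.8, and how many would do so by chance was not determined. The lowest values belonged to Cdc42ep5 (-0.756), Clpx (-0.753) and Kars (-0.750). Genes at both ends were picked from a ranking of many genes over 16 mice, so they are a description without a test. Among them, 4933417D19Rik and Slfn8 had low levels, with means of 1.19 and 1.03 CPM under saline. Between adropin and saline, the 10 genes with the highest r had log2 fold changes from -0.24 for 4933417D19Rik to 0.16 for Kmt2d. The early genes had a median r of 0.31 with Kdm6b, positive for 19 of 20, led by Nr4a3 at 0.567, beside a median of -0.004 over all 14948 genes.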

How the data were processed

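Brain RNA of 8 adropin-treated and 8 saline-treated mice was sequenced as paired reads. Per the study's methods, reads were aligned by the authors (STAR, Ensembl primary assembly, GRCm38), who counted uniquely aligned, unambiguous reads per gene with featureCounts. The deposited counts carry no normalization, and the authors also deposited CPM, the same counts scaled to library size without TMM factors. Entries repeated for several identifiers were dropped (276 of 40757).

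TMM factors were computed over all genes with edgeR 4.0.16 (R 4.3.3). A gene was kept when it exceeded 1 CPM in 7 or more mice, and 355 ribosomal RNA genes were left out. The 14949 remaining genes were fitted with edgeR's quasi-likelihood test, treatment as the sole term, with Benjamini-Hochberg adjustment over all genes. Log2 CPM used a prior count of 2. Lengths came from the GENCODE exons of GRCm38. Alternatives were limma-voom and limma-trend on log2 of CPM plus 1 or 0.1 (limma 3.58.1), DESeq2 1.42.0, other scalings and filters, label-number blocks, the Gm42418 share and leaving out each mouse, and, chosen after seeing the data, leaving out mice 5_4 and 5_5 or 5_4 and 8_3. The members had 575 to 5942 counts per mouse, and the share of counting noise in their spread was not measured.

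The members and gene lists were chosen with earlier results of these data known. Beside the 10 members, the text names all tested relatives, up to 4 genes of each other list with the smallest unadjusted p under 0.05, the 10 most and 3 least similar genes to Kdm6b, Kdm6a, Fos and Gm42418. Nr4a3 and Kdm6bos fall outside this rule and were named after their values were seen.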

Additional observations from a re-analysis of the deposited data

Results flagged for a closer look

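The early gene index of saline-treated mouse 5_4 was -0.745, and the next lowest of the saline group was 0.335. This gap is 0.577 of the range of the group, above the critical ratio for 8 mice (Dixon's test). Chance would give about 1.2 such values over the 24 groups of values examined, so this 1 value is no more than that. The marker lists, on which mouse 8_3 stood apart, were not among the values flagged. In the same mouse Kdm6b was 41.9 CPM, the second lowest of the saline group.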

How the results depend on the processing

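Kdm6b kept a negative fold change in all 27 alternatives, which refit the mice it was selected on. It was -0.12 with the first label number as a replicate block and from -0.28 to -0.23 in the leave-one-out fits. Kdm6b against its relatives stayed between -0.32 and -0.27. With that block Kdm5a moved to -0.04 and 0 members were past an unadjusted p of 0.05 in place of 1. Across groups, mice sharing a first number had r from -0.27 to 0.22 between their deviations (5 pairs). Those sharing a second number had r from -0.56 to 0.30 (17 pairs). So few pairs cannot decide whether mice with a common number deviate together. First numbers 1, 3 and 4 occur only in adropin-treated mice, and 6 and 8 only in saline-treated mice. The main fit does not pair mice by these numbers, whose meaning was not given. The count of members with a negative fold change was 1 with limma-voom and with the second number as a block, 5 with library size only, the first number as a block or the Gm42418 covariate, and from 1 to 5 in the leave-one-out fits. Genes lower in adropin at an unadjusted p under 0.05, 318 in all, became 1061 with no filter, 195 with the first block and 192 to 524 when a mouse was left out (192 without 2_4, 207 without 4_1 and 524 without 4_3). Genes higher, 278 in all, became 158 with library size only, 841 with no filter, 132 and 146 with the first and second block, 146 with the Gm42418 covariate and 162 to 921 when a mouse was left out (162 without 1_3, 488 without 3_3, 921 without 4_3, 632 without 5_3 and 477 without 7_1). The r of Kdm6b with the early gene index was 0.635 without the 2 mice farthest from the median, 0.0883 without the 2 farthest from their group means (chosen after seeing the data) and 0.314 to 0.648 when a mouse was left out. The cause of these shifts was not tested.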
